A study of Homo sapiens with 16 samples.

Results

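Knockdown of EIF6 in the H69M line was followed in cytoplasmic RNA, in 4 of the series' 16 sequencing libraries and across all genes with enough counts. The sheIF6 group is H69M carrying a stably integrated lentiviral short hairpin RNA against EIF6, and the shNTC group is the same line carrying a non-targeting hairpin; each has 2 libraries of cytoplasmic RNA. All 4 came from lysates in a hypotonic buffer with cycloheximide, which holds ribosomes on mRNA, and both groups went through lentiviral infection. H69 and H69M are established human small cell lung cancer lines grown in serum-containing medium; the labels do not say how H69M was derived, whether each stable line is 1 clone or a pool, or how many hairpins were used. The other 12 libraries are polysomal RNA of the same H69M lines, and cytoplasmic and polysomal RNA of H69 labelled sheIF6 or shNTC. The labels do not say whether the 2 lines carry the same hairpin sequences. Of these 12 libraries, 8 are set beside the results here. Nothing in the labels states that the replicates were grown separately; if they were not, the p-values reflect technical spread alone. In bulk RNA, fewer cells of a kind and less of an mRNA per cell cannot be told apart.

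EIF6 encodes an initiation factor that binds the large (60S) ribosomal subunit and blocks its premature union with the small (40S) subunit. It takes part in maturation of the 60S subunit in the nucleus and leaves the cytoplasmic subunit through the action of SBDS and the GTPase EFL1. Small cell lung cancer is usually neuroendocrine, with INSM1 as a lineage factor and dense-core granule proteins such as CHGA, and it can also take a non-neuroendocrine, adherent form with YAP1 and vimentin.

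Facts about the libraries come before the results, since several move with the groups. The sheIF6 libraries held 87269772 and 60662256 counts (replicates 1 and 2) and the shNTC libraries 36005326 and 37527469, so the sheIF6 libraries were the deeper ones; with all 4 thinned to the smallest total the test below called 21 genes higher and 17 lower, 35 of them among the 36 called at full depth. Ribosomal protein mRNAs took 5.26% and 3.24% of counts in the sheIF6 libraries and 2.42% and 2.70% in the shNTC libraries, and mitochondrially encoded RNA took 4.60% and 3.95% against 2.96% and 4.30%. Neuroendocrine markers summed to 1065 and 1006 CPM (read counts scaled to a common library size, here by library total) in sheIF6 and 793 and 740 CPM in shNTC, most of it UCHL1, against 3182 to 3385 CPM in H69; CALCA was at 0 in all 4, and NEUROD1 was at 0 in shNTC replicate 1. Non-neuroendocrine markers summed to 7510 and 5659 CPM in sheIF6 and 6760 and 7178 CPM in shNTC. The 12 fibroblast markers summed to 11835 and 17103 CPM in sheIF6 and 11444 and 17138 CPM in shNTC, nearly all of it the collagen genes COL1A1 and COL1A2, and TWIST2 was at 0 in shNTC replicate 2. The 12 leukocyte markers summed to 5.99 and 5.52 CPM in sheIF6 and 3.83 and 4.74 CPM in shNTC, with CD3D, CD3E, LYZ, NKG7 and MS4A1 at 0 in all 4. The 10 endothelial markers summed to 15.1 and 14.2 CPM in sheIF6 and 14.3 and 11.2 CPM in shNTC, with EMCN and ERG at 0 in both sheIF6 libraries. The part of these cell type markers in the results was not tested.

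Libraries with the same number also shared features. INSM1 was at 2.21 and 29.95 CPM in sheIF6 replicates 1 and 2 and at 1.28 and 28.7 CPM in shNTC replicates 1 and 2. The median of 44 genes that are high in every H69 library and under 1 CPM in H69M shNTC replicate 1 reached 0.299% and 2.13% of its H69 level in the sheIF6 libraries and 0.257% and 2.03% in the shNTC libraries. The low value in shNTC replicate 1 follows from how the genes were chosen, so the shNTC pair does not bear on the replicate number. In sheIF6 this H69-type signal was higher in replicate 2 than in replicate 1. The same held in polysomal RNA of H69M, at 0.845% and 5.22% in sheIF6 and 0.482% and 8.83% in shNTC (replicates 1 and 2). The replicate number enters a second fit as a block within each line, and its values stand beside the first where they change a call.

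The shNTC library of replicate 1 stood apart from the other 3 in stress genes. Of 36 genes of the integrated stress response and amino acid metabolism, 23 (63.9%) were at least 2 times as high in that library as in each of the other 3, against 5.11% of all 23100 genes tested. The same held for 9 of 20 ERK target genes (45%) and for 10 of 30 NF-kB and inflammatory genes (33.3%). TRIB3, a pseudokinase induced by amino acid shortage and endoplasmic reticulum stress, had 37.3 and 16.7 CPM (scaled by TMM, as are all levels from here on) in sheIF6 against 599 and 16.7 CPM in shNTC. ASNS, asparagine synthetase, had 28.9 and 22.1 CPM in sheIF6 against 309 and 20.5 CPM in shNTC, and both were named after their values were seen. The same library was apart in 2 nuclear-retained RNAs: by library total NEAT1 was at 129 and 147 CPM in sheIF6 against 672 and 127 CPM in shNTC, and MALAT1 at 170.4 and 166 CPM against 374 and 185 CPM. The part of this in the calls was not tested beyond leaving the library out, and results that rest on it are given with and without it.

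The targeted gene was lower in sheIF6 by less than the spread allowed to call. EIF6 (chr20:35278911-35284985, minus strand, GRCh38) had 161 and 96.3 CPM in the sheIF6 libraries and 204 and 165 CPM in the shNTC libraries. Both sheIF6 values lay below both shNTC values, with sheIF6 replicate 1 close under shNTC replicate 2. The log2 change was -0.52 (SE 0.29), with an adjusted p of 0.547 in edgeR's quasi-likelihood test and 0.367 with the replicate block. It was -0.93 without sheIF6 replicate 1 and -0.18 without sheIF6 replicate 2. In polysomal RNA of H69M EIF6 had 86.3 and 136 CPM in sheIF6 against 323 and 202 CPM in shNTC (log2 -1.24, adjusted p 0.204 in edgeR and 0.0884 with the block). In H69 cytoplasmic RNA it had 65.0 and 67.7 CPM in sheIF6 against 116 and 112 CPM in shNTC (log2 -0.78, adjusted p 1). EIF6 thus lay lower in sheIF6 in all 3 comparisons and was called in none.

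The question of the comparison is which other mRNAs differ once EIF6 is knocked down in this line. Of 23100 genes tested, 36 (0.156%) passed an adjusted p of 0.05: 21 (0.0909%) rose and 15 (0.0649%) fell in sheIF6. By log2 change the genes that rose most were TNMD, NKD2, FRZB, RIMS4 and NSG1, and those that fell most were ALPK2, CNTN4, PIK3CD, IFFO2 and CELSR1. All 36 are annotated as protein coding, and 31 of them are in none of the gene lists described below. An unadjusted p under 0.05 was reached by 2537 genes, 1306 higher and 1231 lower. With the replicate block the calls were 129 higher (0.558%) and 139 lower (0.602%), and all 36 were among them. Without any test, both sheIF6 libraries lay above both shNTC libraries in 20.4% of the genes and below them in 19.3%, which is the background for every count of non-overlapping members below.

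**Figure D1:**
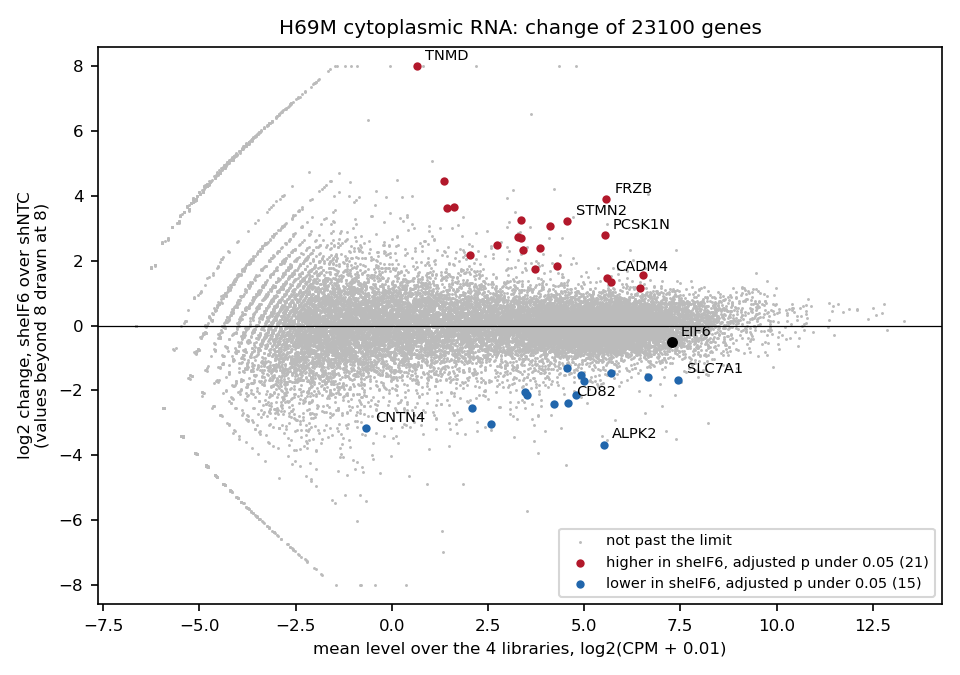
Log2 change of each of 23100 genes (y axis, sheIF6 over shNTC, values beyond 8 drawn at 8) against its mean level in the 4 H69M cytoplasmic libraries (x axis, log2 CPM). Red points are the 21 genes that rose and blue points the 15 that fell at an adjusted p under 0.05; EIF6, in black, lies at -0.52 inside the grey cloud of the other genes.

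FRZB and NKD2, both known as antagonists of Wnt signalling, were called higher. FRZB (chr2:182833275-182867162), a secreted frizzled-related protein that binds Wnt ligands, had 78.7 and 99.6 CPM in sheIF6 against 3.02 and 8.89 CPM in shNTC. Its log2 change was 3.90 (SE 0.54, adjusted p 0.0174 in edgeR). NKD2 (chr5:1008829-1038943), which binds Dishevelled and dampens Wnt signalling, had 6.11 and 3.65 CPM in sheIF6 against 0.300 and 0.132 CPM in shNTC (log2 4.48, SE 0.61, adjusted p 0.016). FRZB is not in the list of Wnt pathway genes, of which 37 were tested and 1, NKD2, passed the limit; 10 lay above and 8 below in both libraries, and the median was 0.09. The transcription factor LEF1 had 18.9 and 27.8 CPM in sheIF6 against 13.1 and 10.8 CPM in shNTC, and the receptor FZD6 had 23.9 and 37.1 CPM against 73.2 and 60.9 CPM, neither past the limit. The ligand WNT7B, picked for this after its values were seen, at 6.64 and 2.41 CPM in sheIF6 against 15.5 and 17.5 CPM in shNTC, passed it with the replicate block (adjusted p 0.0358) and not without.

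STMN2, PCSK1N, NSG1, RIMS4, KIAA0319, EPHB1, CDH20 and SP9 were also called higher; of these STMN2, PCSK1N and EPHB1 are the calls of the neuronal, secretory granule and axon guidance lists. STMN2 (chr8:79610814-79666175), a microtubule-binding protein of growing axons, had 52.2 and 33.2 CPM in sheIF6 against 4.10 and 5.06 CPM in shNTC (log2 3.22, SE 0.40, adjusted p 0.0147 in edgeR). PCSK1N encodes proSAAS, an inhibitor of the prohormone convertase PCSK1; it had 106 and 55.5 CPM in sheIF6 against 9.75 and 13.7 CPM in shNTC (log2 2.79, SE 0.47, adjusted p 0.0479). NSG1 (chr4:4348140-4419058), an endosomal protein of neurons, had 5.21 and 4.68 CPM in sheIF6 against 0.450 and 0.343 CPM in shNTC (log2 3.63, SE 0.42), with the smallest adjusted p of all, 0.0132. In each of these genes the 2 sheIF6 libraries stood several fold above both shNTC libraries. RIMS4, a protein of the presynaptic active zone, had 7.55 and 3.87 CPM in sheIF6 against 0.500 and 0.396 CPM in shNTC (log2 3.66). KIAA0319, a membrane protein studied in neuronal migration, had 11.8 and 10.8 CPM in sheIF6 against 1.57 and 2.43 CPM in shNTC (log2 2.50). EPHB1, a receptor for B-type ephrins in axon guidance, had 23.0 and 25.4 CPM in sheIF6 against 4.45 and 4.80 CPM in shNTC (log2 2.39). CDH20, a cadherin, had 17.3 and 18.4 CPM in sheIF6 against 3.22 and 2.29 CPM in shNTC (log2 2.69), and the zinc finger factor SP9 had 20.1 and 13.5 CPM against 2.17 and 2.90 CPM (log2 2.73).

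The remaining higher genes were of mixed function. CKMT1B, mitochondrial creatine kinase, had 37.9 and 24.3 CPM in sheIF6 against 3.45 and 3.93 CPM in shNTC (log2 3.08, SE 0.36, adjusted p 0.0132 in edgeR). Its near-identical neighbour CKMT1A stood just outside the limit, with a log2 change of 2.58 and an adjusted p of 0.0556, so reads may be split between the 2 copies. COL26A1, a collagen chain, had 20.4 and 16.8 CPM in sheIF6 against 2.00 and 1.85 CPM in shNTC (log2 3.27). PPM1L, a membrane-bound protein phosphatase, had 14.4 and 21.1 CPM in sheIF6 against 3.85 and 3.24 CPM in shNTC (log2 2.32). TNMD, tenomodulin, had 3.80 and 2.46 CPM in sheIF6, from 476 counts, against 0 counts in either shNTC library, which makes it at least 83.7-fold higher when 3 counts over the shNTC group stand for its 0. Called but outside the rule for naming were CADM4, P3H3, APOL4, PI4KA, GSN, RNASET2 and PAIP2B, with log2 changes of 1.17 to 2.19. CADM4, an adhesion molecule, had 73.4 and 68.8 CPM in sheIF6 against 25.9 and 25.2 CPM in shNTC (log2 1.48, SE 0.19).

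Several of these genes are also expressed in H69, and their share of the H69 level is given here beside the H69-type signal above. In the mean of the 2 sheIF6 libraries STMN2 stood at 59.3% of its mean H69 cytoplasmic level, PCSK1N at 75.2%, KIAA0319 at 84.6%, CKMT1B at 35.8% and NSG1 at 20.9%; in shNTC they stood at 6.36%, 10.9%, 15.0%, 4.24% and 1.67%. The 44 H69 genes had medians of 0.299% and 2.13% in the same sheIF6 libraries, and the part of that signal in the calls was not tested. FRZB, NKD2 and SP9 stood at 914%, 527% and 1434% of their H69 level in sheIF6, and COL26A1 and TNMD had no count in the H69 cytoplasmic libraries.

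**Figure D2:**
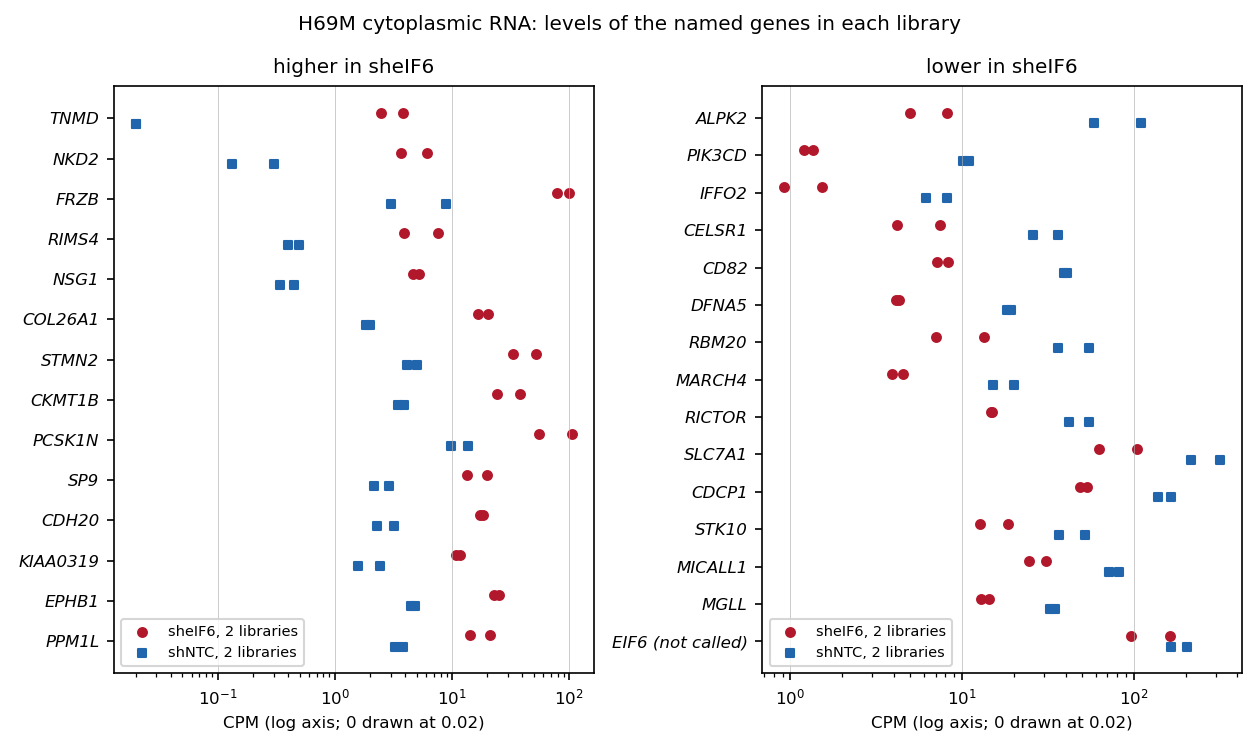
Levels in CPM (log x axis, 0 drawn at 0.02) of the 14 named genes that rose (left) and the 14 that fell (right) in each H69M cytoplasmic library, with EIF6 last on the right. Circles are the 2 sheIF6 libraries and squares the 2 shNTC libraries. The called genes drawn were chosen in part for groups that do not overlap, so the gap between circles and squares follows from that choice. In EIF6 circles and squares lie close together, also without overlap.

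The promoter windows of the called genes were searched for 6 short motifs, and the windows below are shown because they belong to called genes that hold one. RefSeq windows (GRCh38.p14, 300 bases each around a transcript start, mostly before it) existed in the table used for 29 of the 36 genes, 42 windows in all. TGATGNAA, the core of the composite element of ATF4 and C/EBP, lay in 7.14% of the 42 windows and in 3.62% of all 35116; the genes were ALPK2, SLC7A1 and KIAA0319. TTCAGCACC, the left part of the element bound by the neuronal repressor REST, lay in 2.38% of them, all in CKMT1B, against 0.376% of all windows. GGAATG (TEAD) lay in 7.14% against 14%, TGANTCA (AP-1) in 4.76% against 7.71%, CACGTG (E-box) in 4.76% against 7.26%, and TGACGTCA (cAMP response element) in 0% against 1.85%. Both strands were searched, a match is a description of letters, not a bound site, and no matches overlap in the windows printed. Capitals mark the matches: in CKMT1B the E-box and, reversed, the part of the REST element; in ALPK2 TGATGNAA, reversed, at 2 places; in CDH20 GGAATG on either strand; in PCSK1N TGANTCA.
CKMT1B, chr15:43593584-43593883, plus strand: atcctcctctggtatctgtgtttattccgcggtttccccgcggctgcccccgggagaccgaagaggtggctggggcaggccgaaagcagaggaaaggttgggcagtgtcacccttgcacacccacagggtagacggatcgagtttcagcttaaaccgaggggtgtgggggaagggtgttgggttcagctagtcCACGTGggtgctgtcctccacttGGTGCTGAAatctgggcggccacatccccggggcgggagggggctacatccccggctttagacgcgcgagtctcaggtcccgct
ALPK2, chr18:58629042-58629341, minus strand: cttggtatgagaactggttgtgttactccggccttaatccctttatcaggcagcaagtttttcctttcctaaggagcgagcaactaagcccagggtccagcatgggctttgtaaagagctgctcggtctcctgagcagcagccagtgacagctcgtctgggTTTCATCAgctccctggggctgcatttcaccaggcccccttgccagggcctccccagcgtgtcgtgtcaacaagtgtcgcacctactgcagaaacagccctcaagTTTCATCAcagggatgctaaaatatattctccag
CDH20, chr18:61333180-61333479, plus strand: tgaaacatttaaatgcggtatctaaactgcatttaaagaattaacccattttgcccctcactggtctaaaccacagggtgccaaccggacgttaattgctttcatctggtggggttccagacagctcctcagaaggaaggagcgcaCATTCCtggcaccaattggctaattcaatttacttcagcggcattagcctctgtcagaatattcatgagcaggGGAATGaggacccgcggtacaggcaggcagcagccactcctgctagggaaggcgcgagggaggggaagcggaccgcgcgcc
PCSK1N, chrX:48835561-48835860, minus strand: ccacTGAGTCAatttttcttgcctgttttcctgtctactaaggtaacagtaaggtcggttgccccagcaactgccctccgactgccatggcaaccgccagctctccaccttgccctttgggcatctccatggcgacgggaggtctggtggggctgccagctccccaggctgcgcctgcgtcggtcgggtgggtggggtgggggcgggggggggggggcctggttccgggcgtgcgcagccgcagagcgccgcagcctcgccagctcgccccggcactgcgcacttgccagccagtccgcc

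The genes that fell were led by ALPK2 (chr18:58481247-58628957), an alpha-kinase. It had 4.95 and 8.22 CPM in sheIF6 against 110.0 and 58.4 CPM in shNTC (log2 -3.68, SE 0.43, adjusted p 0.021 in edgeR), and it had no count in the H69 cytoplasmic libraries. PIK3CD, the delta catalytic subunit of PI3-kinase, had 1.20 and 1.35 CPM in sheIF6 against 10.2 and 10.97 CPM in shNTC (log2 -3.05). RICTOR (chr5:38937919-39074408), the defining subunit of mTOR complex 2, had 14.7 and 15.0 CPM in sheIF6 against 55.0 and 42.0 CPM in shNTC (log2 -1.71, SE 0.25, adjusted p 0.0203). STK10, a kinase of ezrin, radixin and moesin, had 18.4 and 12.7 CPM in sheIF6 against 52.3 and 36.5 CPM in shNTC (log2 -1.51).

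CD82, CDCP1, CELSR1 and SLC7A1, which encode membrane proteins, were also called lower. CD82 (chr11:44564427-44620363), a tetraspanin that organises membrane complexes with integrins, had 7.12 and 8.25 CPM in sheIF6 against 39.4 and 40.8 CPM in shNTC (log2 -2.38, SE 0.31, adjusted p 0.0147 in edgeR). CDCP1, a transmembrane substrate of Src-family kinases, had 48.6 and 53.1 CPM in sheIF6 against 165 and 139 CPM in shNTC (log2 -1.58, SE 0.22, adjusted p 0.016). CELSR1, a cadherin of planar cell polarity, had 4.15 and 7.42 CPM in sheIF6 against 36.3 and 26.0 CPM in shNTC (log2 -2.43). In these 3 genes the 2 libraries of a group lay closer to each other than either lay to the other group. SLC7A1, the main transporter of cationic amino acids, had 62.9 and 104 CPM in sheIF6 against 318 and 214 CPM in shNTC (log2 -1.67, SE 0.29, adjusted p 0.0479). Without shNTC replicate 1 its log2 change was -1.35, with an adjusted p of 0.248.

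The other named genes that fell were DFNA5, MARCH4, MICALL1, MGLL, RBM20 and IFFO2. DFNA5, now GSDME, makes the pore-forming gasdermin E; it had 4.29 and 4.13 CPM in sheIF6 against 18.2 and 19.3 CPM in shNTC (log2 -2.15). RBM20, a splicing regulator known from titin, had 7.04 and 13.4 CPM in sheIF6 against 54.5 and 36.3 CPM in shNTC (log2 -2.15). MICALL1, a protein of endocytic recycling, had 30.8 and 24.4 CPM in sheIF6 against 82.1 and 71.9 CPM in shNTC (log2 -1.48). In each of these 3 genes both sheIF6 libraries lay well below both shNTC libraries. MARCH4, a membrane-bound ubiquitin ligase, had 4.54 and 3.90 CPM in sheIF6 against 15.2 and 20.04 CPM in shNTC (log2 -2.06). IFFO2, an intermediate filament family member, had 0.918 and 1.53 CPM in sheIF6 against 8.12 and 6.20 CPM in shNTC (log2 -2.55). MGLL, which splits monoacylglycerols, had 14.3 and 12.9 CPM in sheIF6 against 34.6 and 32.7 CPM in shNTC (log2 -1.30). CNTN4, the fifteenth gene that fell, lay outside the rule for naming: it had 0.119 and 0.125 CPM in sheIF6, from 18 counts, against 1.45 and 0.791 CPM in shNTC, from 88.

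The calls depended on replicate 1 of each group. Without sheIF6 replicate 1, and likewise without shNTC replicate 1, no gene passed an adjusted p of 0.05 in edgeR (1041 and 1506 genes had an unadjusted p under 0.05), while all 36 kept the sign of their change. Without sheIF6 replicate 2 the calls were 75 higher and 30 lower, and without shNTC replicate 2 they were 6 higher and 12 lower. Leaving out an H69 cytoplasmic library, which changes both the shared estimate of spread and the genes tested (24715 to 24874), gave 13 to 16 higher and 7 to 11 lower. In FRZB the log2 change ran from 3.33 to 4.89 over the 4 fits that leave out 1 H69M cytoplasmic library, in STMN2 from 2.87 to 3.52, in CD82 from -2.48 to -2.27 and in ALPK2 from -4.08 to -3.14. Exons of 13 of the 36 genes overlap a gene on the opposite strand in GENCODE v29 (RICTOR with OSMR, CKMT1B with STRC, PIK3CD with CLSTN1), and without a known strand setting such reads cannot be told apart.

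Ribosomal protein mRNAs were higher in sheIF6 as a group, though no member passed the limit, with or without the replicate block. Of 47 large-subunit proteins 44 lay above in both libraries and 1 below, with a median log2 change of 0.75; of 32 small-subunit proteins 29 lay above and 0 below, with a median of 0.84. Across all genes tested 20.4% lay above and 19.3% below, and the median was 0. RPL13A had 1888 and 911 CPM in sheIF6 against 588 and 672 CPM in shNTC, and RPS3A had 856 and 474 CPM against 260 and 385 CPM. The sheIF6 library of replicate 1 was the highest of the 4 in both, and without it the medians were 0.38 (large subunit) and 0.39 (small subunit). In polysomal RNA of the same lines the medians were 0.16 and 0.19. Ribosomal protein genes share reads with many pseudogenes, so values of single members are uncertain.

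Other parts of the translation machinery lay closer to the background than the ribosomal protein mRNAs did. Of the initiation and elongation factors 40.5% still lay above, against 20.4% of all genes. Of 42 initiation and elongation factors 17 were above and 5 below in both libraries (median 0.24; 0.13 without sheIF6 replicate 1), and of 24 genes of 60S maturation, EIF6 and its partners, 7 were above and 7 below (median -0.14). The 40 nucleolar ribosome biogenesis genes had 7 above and 4 below (median 0.01). No member of the 3 lists passed the limit. EIF3K, a subunit of the initiation factor that binds the 40S subunit, had 268 and 142 CPM in sheIF6 against 71.1 and 118 CPM in shNTC. GLTSCR2 (NOP53), a 60S biogenesis factor, had 333 and 169 CPM in sheIF6 against 144 and 119 CPM in shNTC. Outside the translation machinery, 21 of 40 nuclear genes of oxidative phosphorylation (52.5%) were above and 2 below (median 0.51, and 0.20 without sheIF6 replicate 1). Of 30 mitosis genes 16 (53.3%) were above and 0 below (median 0.42, and 0.14 without shNTC replicate 1). No member of either list passed the limit.

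**Figure D3:**
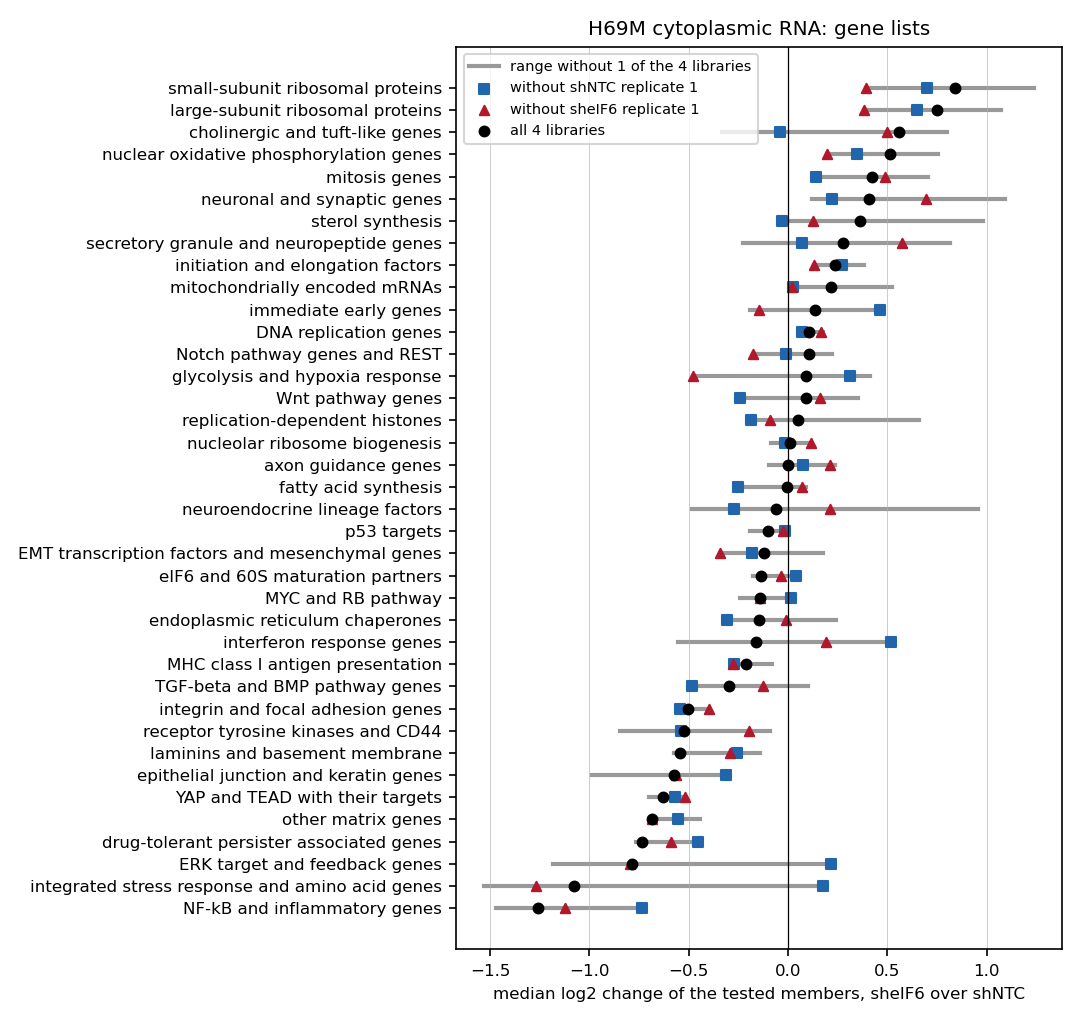
Median log2 change (x axis, sheIF6 over shNTC) of the tested members of 38 gene lists. Black points use all 4 libraries, red triangles leave out sheIF6 replicate 1, blue squares leave out shNTC replicate 1, and grey lines span the fits that leave out 1 of the 4; the integrated stress response list moves to 0.18, against -1.08 with all libraries, when shNTC replicate 1 is left out.

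NF-kB and inflammatory genes lay lower in sheIF6. Of 30 tested members 0 lay above and 18 lay below in both libraries, with a median log2 change of -1.26; no member passed the limit, and TNFAIP3 passed it with the replicate block (adjusted p 0.0175). TNFAIP3, the ubiquitin-editing inhibitor of NF-kB, had 17.7 and 16.3 CPM in sheIF6 against 75.3 and 37.9 CPM in shNTC. NFKB2, a subunit precursor, had 24.1 and 24.1 CPM in sheIF6 against 52.9 and 40.7 CPM in shNTC, and the receptor TNFRSF9 had 1.32 and 2.83 CPM against 15.4 and 8.62 CPM. The shNTC library of replicate 1 was the highest in each, and without it the median was -0.74. The median was -1.30 in polysomal RNA of H69M.

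Genes of the integrated stress response and amino acid metabolism had a median of -1.08, which depended on 1 library. With all 4 libraries 1 of the 36 members lay above and 5 below in both, and without shNTC replicate 1 the median was 0.18. The list's call, SLC7A1, is described above. SLC7A5, the large neutral amino acid transporter, had 309 and 260 CPM in sheIF6 against 799 and 625 CPM in shNTC (adjusted p 0.0574 in edgeR, and 0.0175 with the block). The 20 ERK target and feedback genes behaved alike in this respect, with a median of -0.79 and of 0.22 without shNTC replicate 1. In H69 cytoplasmic RNA the stress response list had a median of -0.18, and the ERK list had a median of -1.47. Within that list CCND1, cyclin D1, had 23.7 and 26.6 CPM in sheIF6 against 66.8 and 77.5 CPM in shNTC, and EPHA4 2.39 and 4.07 CPM against 7.27 and 11.97 CPM; both passed with the block (adjusted p 0.0207 and 0.00418) and neither without it.

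**Figure D4:**
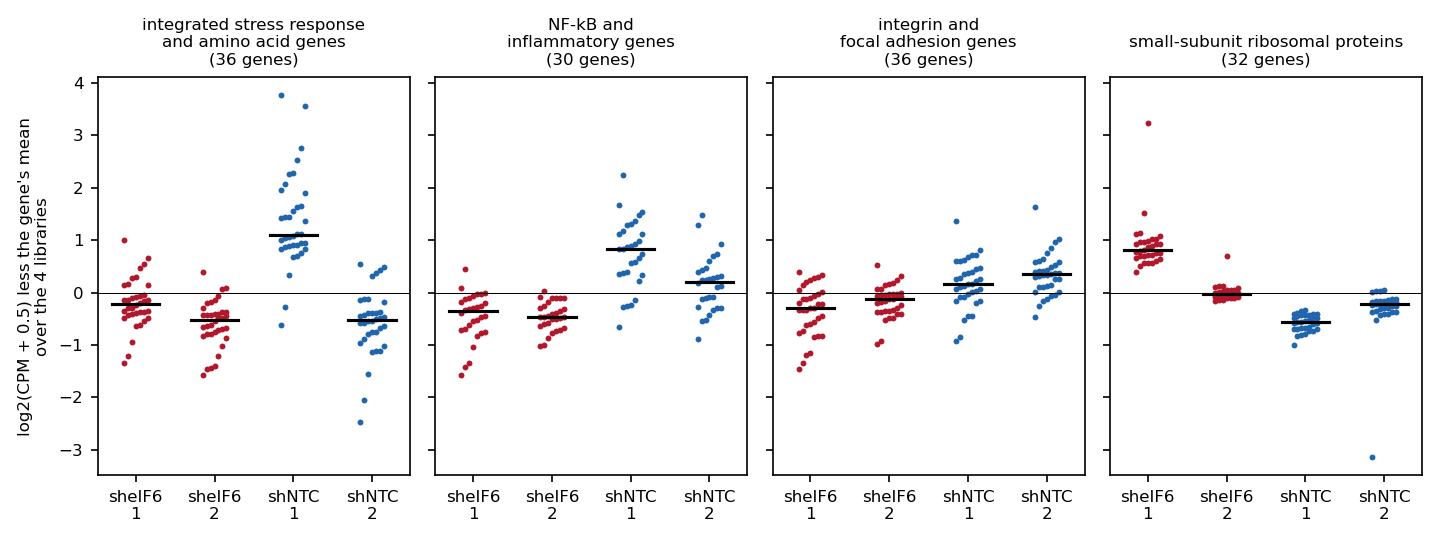
Level of each member of 4 gene lists in each H69M cytoplasmic library, as log2(CPM + 0.5) less the member's mean over the 4 libraries (y axis); bars mark medians. Stress response members lie at a median of 1.10 in shNTC replicate 1 and between -0.52 and -0.22 in the other 3, whereas integrin and focal adhesion members lie at -0.30 and -0.12 in sheIF6 and at 0.17 and 0.35 in shNTC.

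Adhesion genes and targets of YAP lay lower with less dependence on 1 library. Of 36 integrin and focal adhesion genes 1 lay above and 20 below (median -0.51, and -0.54 to -0.40 over the fits without 1 of the 4 libraries). Of 30 genes of YAP and TEAD with their targets 2 lay above and 18 below (median -0.63, and -0.70 to -0.52 over those fits). In H69 cytoplasmic RNA the medians were -0.16 for the integrin list and -0.56 for the YAP list. No member of either list passed the limit. FERMT2, kindlin-2, which activates integrins, had 235 and 273 CPM in sheIF6 against 645 and 568 CPM in shNTC (adjusted p 0.0694 in edgeR, and 0.0244 with the block). ITGA6, the alpha6 integrin, had 7.44 and 11.5 CPM in sheIF6 against 22.1 and 18.4 CPM in shNTC. TEAD1, a DNA-binding partner of YAP, had 126 and 229 CPM in sheIF6 against 269.8 and 409 CPM in shNTC. TEAD2, named after its values were seen, went the other way, with 54.0 and 33.8 CPM in sheIF6 against 15.0 and 7.96 CPM in shNTC (adjusted p 0.0476 with the block, 0.447 without).

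Matrix and epithelial genes had members in both directions. Of 35 matrix genes other than laminins 2 lay above and 17 below (median -0.69, and -0.44 without shNTC replicate 2). Of 20 laminin and basement membrane genes 2 lay above and 5 below (median -0.54, and -0.14 without shNTC replicate 2). Of 39 epithelial junction and keratin genes 5 lay above and 15 below (median -0.57, with -0.99 without sheIF6 replicate 2 and -0.31 without shNTC replicate 1). No member of these lists passed the limit. In H69 cytoplasmic RNA the medians, in the same order, were -0.61, -0.08 and 0.06. COL12A1, a collagen that decorates fibrils, had 4.87 and 10.3 CPM in sheIF6 against 45.6 and 131 CPM in shNTC, and the glycoprotein TNC had 32.9 and 34.7 CPM against 193 and 80.0 CPM. Both passed in edgeR with the replicate block, at adjusted p of 0.00418 and 0.0152, and COL13A1 also passed as lower (0.0244). COL5A2, named after its values were seen, passed as higher with the block (0.0415). It had 165 and 528 CPM in sheIF6 against 107 and 218 CPM in shNTC, so the groups overlapped. Desmosome genes differed in direction: DSP, desmoplakin, had 31.3 and 59.4 CPM in sheIF6 against 14.1 and 21.3 CPM in shNTC, and DSG2, a desmosomal cadherin, had 4.94 and 11.6 CPM against 25.1 and 46.9 CPM, both past the limit with the block (0.0165 and 0.0175). CDH1, E-cadherin, also named after its values were seen, was low in all libraries, with 1.22 and 1.67 CPM in sheIF6 against 4.02 and 5.80 CPM in shNTC (0.0271 with the block).

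The neuronal list had 1 call and members on both sides. Of 54 tested neuronal and synaptic genes 21 lay above and 8 below (median 0.41; 0.12 without sheIF6 replicate 2 and 1.10 without shNTC replicate 2), and STMN2 was the call. With the block STMN3, MAP2 and NRXN2 passed as higher and L1CAM as lower. MAP2, a dendritic microtubule protein named after its values were seen, had 80.5 and 114 CPM in sheIF6 against 40.4 and 38.8 CPM in shNTC, and L1CAM, an adhesion molecule of axons, had 116 and 134 CPM against 333 and 416 CPM. Of 31 secretory granule and neuropeptide genes 8 lay above and 3 below (median 0.28; -0.23 without sheIF6 replicate 2), and PCSK1N was the call; CPE, carboxypeptidase E of the granule, had 99.3 and 145 CPM in sheIF6 against 17.4 and 31.4 CPM in shNTC (0.00418 with the block, 0.12 without). RAB3B and PTPRN, both of secretory vesicles, went the other way: RAB3B had 7.48 and 6.57 CPM in sheIF6 against 22.1 and 30.5 CPM in shNTC, and PTPRN 2.34 and 1.44 CPM against 9.55 and 7.30 CPM (0.021 and 0.0187 with the block).

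Neuroendocrine lineage factors also had members on both sides. Of 30 tested 5 lay above and 3 below (median -0.06; -0.48 without sheIF6 replicate 2 and 0.96 without shNTC replicate 2), and none passed the limit; POU3F2, at 2.58 and 5.71 CPM in sheIF6 against 7.57 and 15.7 CPM in shNTC, was lower with the block (adjusted p 0.0175). Of the 15 non-neuroendocrine markers 1 lay above and 7 below, with a median of -0.47 (-0.16 without sheIF6 replicate 2 and -0.15 without shNTC replicate 1). YAP1 had 96.2 and 168 CPM in sheIF6 against 273 and 245 CPM in shNTC, and KRT17 647 and 352 CPM against 989 and 927 CPM. HES1, the member above in both and named for that, had 81.2 and 71.6 CPM in sheIF6 against 46.6 and 53.8 CPM in shNTC, and VIM, at 3822 and 2604 CPM against 1905 and 2797 CPM, overlapped between the groups. Of 29 genes tied to drug-tolerant persister cells 3 lay above and 12 below (median -0.73; -0.45 without shNTC replicate 1). NNMT, a methyltransferase of nicotinamide, had 0.656 and 0.939 CPM in sheIF6 against 6.22 and 4.25 CPM in shNTC, whereas ALDH1A1, an aldehyde dehydrogenase, had 94.6 and 107 CPM against 31.1 and 42.1 CPM. Among receptor tyrosine kinases MERTK had 3.33 and 1.77 CPM in sheIF6 against 14.6 and 6.38 CPM in shNTC (0.0175 with the block), in a list of such receptors with 4 of 32 members above and 10 below (median -0.52; -0.09 without shNTC replicate 2). Of 25 Notch pathway genes 5 lay above and 6 below; HEY2, a transcriptional repressor downstream of Notch, had 8.68 and 8.67 CPM in sheIF6 against 3.55 and 3.27 CPM in shNTC (0.0278 with the block).

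Polysomal RNA of the same lines, from other libraries, gave the called genes the same direction. Those libraries also entered the estimate of spread behind the calls, so the agreement is not fully separate from the calls. All 36 had the same sign there, against 69.6% of all genes tested, and in all 36 the polysomal libraries of the 2 groups did not overlap, which held in the cytoplasmic direction for 6212 of the 23100 genes. Polysomal libraries called 15 genes in all (0.0649%). In STMN2 polysomal RNA had 41.0 and 41.9 CPM in sheIF6 against 4.62 and 10.0 CPM in shNTC, and in ALPK2 7.62 and 7.88 CPM against 118 and 74.0 CPM. The median log2 change of the 21 higher genes was 2.69 in cytoplasmic and 1.89 in polysomal RNA, and that of the 15 lower genes -2.15 and -1.94. The difference between fractions was tested for every gene and called none (0%) in edgeR; 392 genes had an unadjusted p under 0.05, DESeq2 called 1 and limma-voom 0. RICTOR had a polysomal change of -0.75 beside -1.71 in cytoplasmic RNA, and CKMT1B 1.35 beside 3.08, neither difference past the limit. The labels do not say whether both fractions came from the same cultures.

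**Figure D5:**
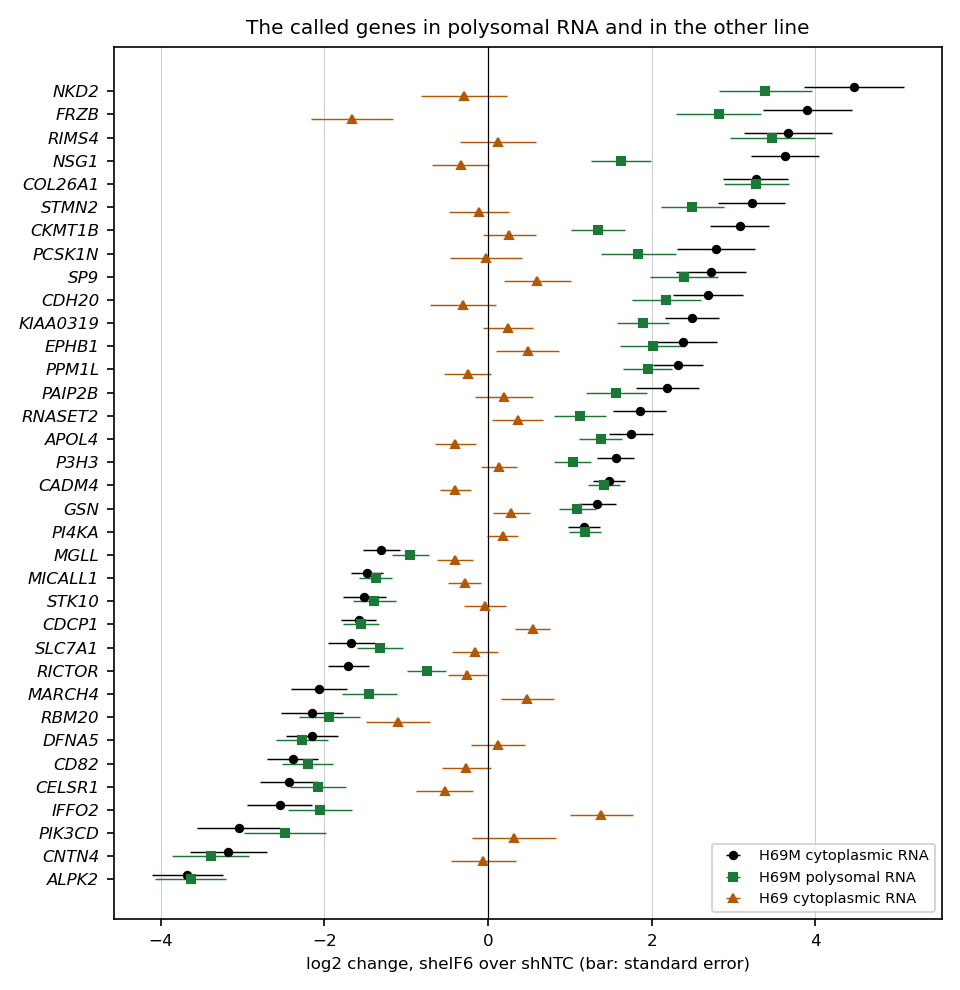
Log2 change (x axis, sheIF6 over shNTC, bars are standard errors) of 35 of the 36 called genes, leaving out TNMD, which has no count in shNTC cytoplasmic RNA. Circles are H69M cytoplasmic RNA, squares H69M polysomal RNA and triangles H69 cytoplasmic RNA, where ALPK2 and COL26A1 have no count; circles and squares lie on the same side of 0 in each gene, and triangles fall on either side.

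In H69 cytoplasmic RNA these genes had no common direction under sheIF6. Of the 36, 19 (52.8%) had the same sign there, against 55.2% of all genes. TNMD, COL26A1 and ALPK2 had no count there, so their change was set to 0. A change of 0 was scored as not the same sign, for these and for all genes. The medians were 0 for the 21 higher and -0.06 for the 15 lower genes. That 0 is the value set for TNMD and COL26A1, not a measured change. No gene was called in H69 (0%) in edgeR; 696 had an unadjusted p under 0.05, and the replicate block called 1. The difference between the lines was tested directly and called 7 genes (0.0303%); it uses the same 4 H69M libraries as the comparison above, so it is not separate evidence on H69M. FRZB had 78.7 and 99.6 CPM in sheIF6 against 3.02 and 8.89 CPM in shNTC in H69M, and 5.15 and 4.22 CPM against 19.1 and 10.6 CPM in H69; the difference of the log2 changes was 5.57 (SE 0.73). CDCP1 had 36.2 and 37.8 CPM in sheIF6 against 21.6 and 28.99 CPM in shNTC in H69, against the fall in H69M given above, and the difference was -2.13 (SE 0.30). GATA6, a zinc finger transcription factor, had 12.1 and 14.6 CPM in sheIF6 against 38.9 and 35.4 CPM in shNTC in H69M, and 1.58 and 2.32 CPM against 0.156 and 0 CPM in H69. Its change in H69M alone did not pass the limit (log2 -1.48, adjusted p 0.327 in edgeR), whereas the difference of -6.06 did (adjusted p 0.0374).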

How the data were processed

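The deposited file is a table of whole-number read counts for 56832 gene names in 16 libraries. Per the submitters' processing notes the reads were aligned with STAR to GRCh38 (hg38) and counted with HTSeq; versions, annotation and strand setting are not given in the sources used here. Levels were computed from those counts as CPM scaled by TMM. The test was edgeR 4.0.16's robust quasi-likelihood test (R 4.3.3) with 1 mean for each of the 8 groups over all 16 libraries, after filterByExpr with a minimum count of 10, which kept 23100 genes; p-values were adjusted by Benjamini-Hochberg over all of them, with a limit of 0.05. All groups enter so that 8 residual degrees of freedom estimate the spread (common dispersion 0.153).

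Same-numbered libraries deviated together in all 6 pairs of H69M groups (r of 0.172 to 0.578), from the data and not from the labels, so a fit with the replicate number as a block within each line stands beside the calls it changes. Alternatives were DESeq2 1.42.0, limma-voom 3.58.1, RLE or total scaling, other count filters, fewer libraries in the fit, thinning, and each library left out. In counts simulated for this comparison over 21973 genes, the test called 1 of 50 genes changed 1.5-fold, 4 of 50 changed 2-fold, 23 of 50 changed 4-fold and 41 of 50 changed 8-fold, with 4 false calls. Before the change each gene had the same mean share in every library, with no difference between lines, fractions or replicate numbers. The changed genes were drawn from those above a count floor. Small changes were mostly missed in such counts, and the rates may differ in the real libraries.

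Named genes were EIF6, the called genes with the largest log2 changes (14 per direction, with groups that do not overlap and a mean count of 100 or more where higher), the called members of 43 gene lists, and up to 4 others per list with the smallest p. The comparison and lists were chosen with earlier results of these data known. Gene positions are from GENCODE release 29 by name, with 29502 names matched to 1 gene and 856 more through a RefSeq synonym. Promoter sequences are from RefSeq. Some genes are not reported here.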

Additional observations from a re-analysis of the deposited data

Results flagged for a closer look

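In 7 genes the change under sheIF6 in cytoplasmic RNA differed between the lines, by a test of the difference itself in edgeR. The difference is the log2 change in H69M less the log2 change in H69 (adjusted p 0.0374 in edgeR for each). The difference was positive in FRZB, at 5.57, in NSG1, at 3.96, and in CADM4, at 1.88. It was negative in GATA6, at -6.06, in IFFO2, at -3.93, in NHSL2, at -3.42, and in CDCP1, at -2.13. In H69, where no gene passed the limit, FRZB had 5.15 and 4.22 CPM in sheIF6 against 19.1 and 10.6 CPM in shNTC. IFFO2 had 3.85 and 3.34 CPM in sheIF6 against 1.31 and 1.44 CPM in shNTC in H69. NHSL2, which did not pass the limit in either line alone, had 3.39 and 4.88 CPM in sheIF6 against 10.2 and 9.36 CPM in shNTC in H69M, and 7.37 and 5.95 CPM against 1.74 and 1.20 CPM in H69. NSG1 had 22.9 and 19.1 CPM in sheIF6 against 33.0 and 19.8 CPM in shNTC in H69, and CADM4 had 19.8 and 21.5 CPM against 29.9 and 24.5 CPM. All 7 signs held under every alternative run, but 70 of 126 recomputed values no longer passed the limit. No gene was called in limma-voom, nor without H69M shNTC replicate 1, either sheIF6 library of H69M or either sheIF6 library of H69, and 1 was called by total scaling; with the replicate block the adjusted p of the 7 ran from 0.000449 to 0.0209.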

How the results depend on the processing

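The log2 change of EIF6 passed the limit under none of 16 alternatives and stayed negative. The 36 called genes kept their sign in all 576 values recomputed, and 189 of those values no longer passed. Genes called higher numbered 21 at first, and 33 without a count filter, 220 in DESeq2, 40 in limma-voom, 5 with H69M libraries alone, 13 with the 4 libraries alone, 129 with the replicate block, and 0 to 75 with 1 library left out. Genes called lower numbered 15, and 238 in DESeq2, 62 in limma-voom, 4 with H69M libraries alone, 7 with the 4 libraries alone, 139 with the replicate block, 22 without a count filter, and 0 to 30 with 1 library left out. The share called higher was 58.3%, against 48.03% in DESeq2, 39.2% in limma-voom and 48.1% with the block. Without the 4 H69M libraries numbered 2, an alternative chosen after seeing the data, 417 were higher and 240 lower, 27 of them among the 36; the thinning was also chosen after seeing the data. The difference between lines called 7 genes, and 1 by total scaling, 12 without a count filter, 95 in DESeq2, 0 in limma-voom, 32 with the block, 46 without the libraries numbered 2, and 0 to 7 with 1 library left out. The difference between fractions called 0, 1 in DESeq2, and 0 to 3 with 1 library left out. Where a fit changed these counts, the cause was not tested. Of 43 lists 25 had a median that changed sign under some alternative, among them the integrated stress response (-1.08), ERK target (-0.79) and endothelial marker (-2.03) lists, so a median far from 0 is not by itself a stable direction. A group left with 1 library is assumed to vary like the others. The block changed no other call.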

Other observations

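Some genes outside the lists were past the limit with the replicate block and not without it; they are named here after their values were seen. SOSTDC1, a secreted antagonist of BMP and Wnt signalling, had 13.2 and 16.7 CPM in sheIF6 against 0.750 and 1.19 CPM in shNTC (adjusted p 0.0107 in edgeR with the block, 0.0924 without). LIX1, a gene of limb development and smooth muscle progenitors, had 24.2 and 46.8 CPM in sheIF6 against 0.900 and 2.90 CPM in shNTC (0.0325 with the block, 0.219 without). ADGRG6, an adhesion G protein-coupled receptor needed for myelination, had 1.37 and 2.66 CPM in sheIF6 against 26.9 and 20.6 CPM in shNTC (0.0230 with the block, 0.0694 without).

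A few genes were high in some libraries and low or at 0 in others without following the hairpin in the same way throughout. They too were named after their values were seen. CTD-2207O23.3 had 46.3 and 35.6 CPM by library total in sheIF6 cytoplasmic RNA of H69M and 0 in shNTC, and it was at 0 in each of the other libraries except for 31.9 CPM in 1 polysomal shNTC library of H69. It passed the limit with the replicate block (adjusted p 0.00418 in edgeR) and not without it (0.402). RP11-762I7.5 had 57.6 and 51.8 CPM in sheIF6 against 0.250 and 0.160 CPM in shNTC, and it ran from 0.0893 to 74.2 CPM across the series. ZNF320, a zinc finger gene, had 7.59 and 7.75 CPM in sheIF6 against 104 and 69.7 CPM in shNTC. In H69 cytoplasmic RNA the direction was the same, with 9.49 and 4.72 CPM in sheIF6 against 39.3 and 61.1 CPM in shNTC. In polysomal RNA sheIF6 was the higher group. It had 4.58 and 32.8 CPM against 2.80 and 3.28 CPM in H69M, and 25.1 and 36.9 CPM against 1.32 and 1.58 CPM in H69.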
